A study of Homo sapiens with 4 samples.

Results

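The genes of epithelial iron handling described here are 9 in number: the importers SLC11A2, TFRC and CYBRD1, the exporter SLC40A1 with its ferroxidase HEPH, the ferritin subunits FTH1 and FTL, and the iron regulatory proteins ACO1 and IREB2. They were followed in T84 cells, an established human line from a colorectal carcinoma whose cells polarise in layers, through every probe set whose annotation gives 1 of these symbols and no other. This found 20 of the 54675 probe sets on the array, for 7 of the 9 genes. FTH1 and IREB2 had no probe set under their symbol in the annotation used and were not analysed here. Cells grew on 24 mm filters (pore size 0.4 µm), received 15 pmol of oligonucleotide by transfection (the labels do not say whether this was the total of a mix or the amount of each miRNA), and gave total RNA for Affymetrix U133 Plus 2.0 arrays. There were 4 groups of 1 array each, all of the same line. One control received a short negative-control RNA and was collected on day 5, and another received the same RNA and was collected on day 7. The 2-miRNA cells received miR-338-3p and miR-451 and the 4-miRNA cells received these with miR-210 and miR-33a, both collected on day 5.

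Intestinal epithelium takes up iron through the apical membrane. CYBRD1 reduces ferric iron there, and SLC11A2 (DMT1) carries the ferrous ion into the cell. Iron that is not used is stored in ferritin, a shell of FTH1 and FTL subunits, or leaves through basolateral ferroportin, encoded by SLC40A1, with hephaestin, encoded by HEPH, oxidising it for loading onto transferrin. TFRC, the transferrin receptor, brings iron in from the basolateral side. ACO1 and IREB2 bind iron-responsive elements of several of these messenger RNAs when iron is scarce, which stabilises TFRC mRNA and blocks translation of ferritin mRNA. The hypoxia-inducible factor HIF-2 is known to activate SLC11A2, CYBRD1 and SLC40A1 in the duodenum. TFRC and ISCU, a scaffold of iron-sulphur cluster assembly, are among reported targets of miR-210.

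The mature sequences of miR-338-3p, miR-33a and miR-210, from RefSeq on GRCh38.p14, show what the cells were given, with bases 2 to 8, the seed that pairs with a target, in capitals. Both mixes also held miR-451, whose sequence is not shown here. The labels name no arm for miR-33a and miR-210, and the arms shown are those usually meant by these names.
miR-338-3p (chr17:81125887-81125908, minus strand): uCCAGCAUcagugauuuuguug
miR-33a-5p (chr22:41900949-41900969, plus strand): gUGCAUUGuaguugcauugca
miR-210-3p (chr11:568112-568133, minus strand): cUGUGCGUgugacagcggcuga
The 3 seeds differ from one another. Target sites in the iron genes' transcripts were not searched here.

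Windows of 250 bases before the RefSeq start sites (GRCh38.p14) of SLC11A2 and SLC40A1, the importer and the exporter that were both higher on 3 of the arrays against the day 5 control, are shown with the HIF core motif in capitals, searched as ACGTG or GCGTG and as CACGT or CACGC for the other strand. Each start position of a match was counted once, and ACGTG and CACGT can overlap.
SLC11A2 (chr12:51026385-51026634, minus strand): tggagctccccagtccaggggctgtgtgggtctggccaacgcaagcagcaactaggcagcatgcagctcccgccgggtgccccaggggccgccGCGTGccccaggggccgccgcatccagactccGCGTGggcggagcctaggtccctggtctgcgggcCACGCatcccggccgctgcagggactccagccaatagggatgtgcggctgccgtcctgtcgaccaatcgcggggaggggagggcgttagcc
SLC40A1 (chr2:189580787-189581036, minus strand): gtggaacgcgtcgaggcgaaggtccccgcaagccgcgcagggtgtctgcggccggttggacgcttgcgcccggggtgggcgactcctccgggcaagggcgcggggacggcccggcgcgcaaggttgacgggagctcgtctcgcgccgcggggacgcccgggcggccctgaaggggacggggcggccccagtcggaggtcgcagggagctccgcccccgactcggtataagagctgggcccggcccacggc
The SLC11A2 window held 3 matches, starting 157, 125 and 91 bases before the start site, and the SLC40A1 window held 0. RefSeq gives SLC11A2 4 such windows, of which another had 1 match, 137 bases before its start. The FTL window had 3 matches, those of TFRC and ACO1 had 1 each, 1 of 2 windows of CYBRD1 and 1 of 2 of IREB2 had 1, and the 3 windows of HEPH had 0. In all 7 of the members' 15 windows held a match. Among all 35116 windows of this length 43.2% held at least 1 match, a share near that of the members. A match is a run of letters and is given as a description.

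The deposited trimmed means were 76.6 (day 5) and 74.3 (day 7) for the controls, against 147 on the 2-miRNA and 150 on the 4-miRNA array, so brightness and miRNA treatment coincide and cannot be told apart. Each array was scaled to a mean of 500 without its lowest and highest 2% of probe sets, and differences are log2 of scaled signal plus 32, which understates those of dim genes. All 14 colon epithelium markers, EPCAM, CDH17 and CDX2 among them, were above the 75th percentile of every array, with a summed signal of 205600, 277029, 204534 and 216713 on the day 5 control, day 7 control, 2-miRNA and 4-miRNA arrays. No marker of fibroblasts, leukocytes, erythroid cells, hepatocytes or endothelium reached that percentile on all arrays, and their sums were 402 to 709, 456 to 698, 402 to 592, 720 to 1055 and 265 to 435. Under the median of every array were 5 of 8 fibroblast and 5 of 6 endothelial markers, VWF among them. So were 2 of 8 leukocyte, 2 of 5 erythroid and 2 of 8 hepatocyte markers, PTPRC and ALB among them. COL1A1, CD3E, HBB, SERPINA1 and PECAM1 were above the median of every array. The ratio of 3′ to 5′ control probe sets was 0.951 to 1.02 for GAPDH and 1.97 to 2.33 for actin. With 1 array per group there is no test across cultures, and no p-value is given. The disagreement of paired probe sets over 1736 genes with a bright pair gave an SD for a single probe set. This is the SD of the disagreement divided by the square root of 2. The probe set SD was 0.27 for day 7 minus day 5 and 0.58 for each mix minus the day 5 control. It was 0.51 for each mix minus the day 7 control and 0.19 between the mixes. It measures probe set error only.

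**Figure D1:**
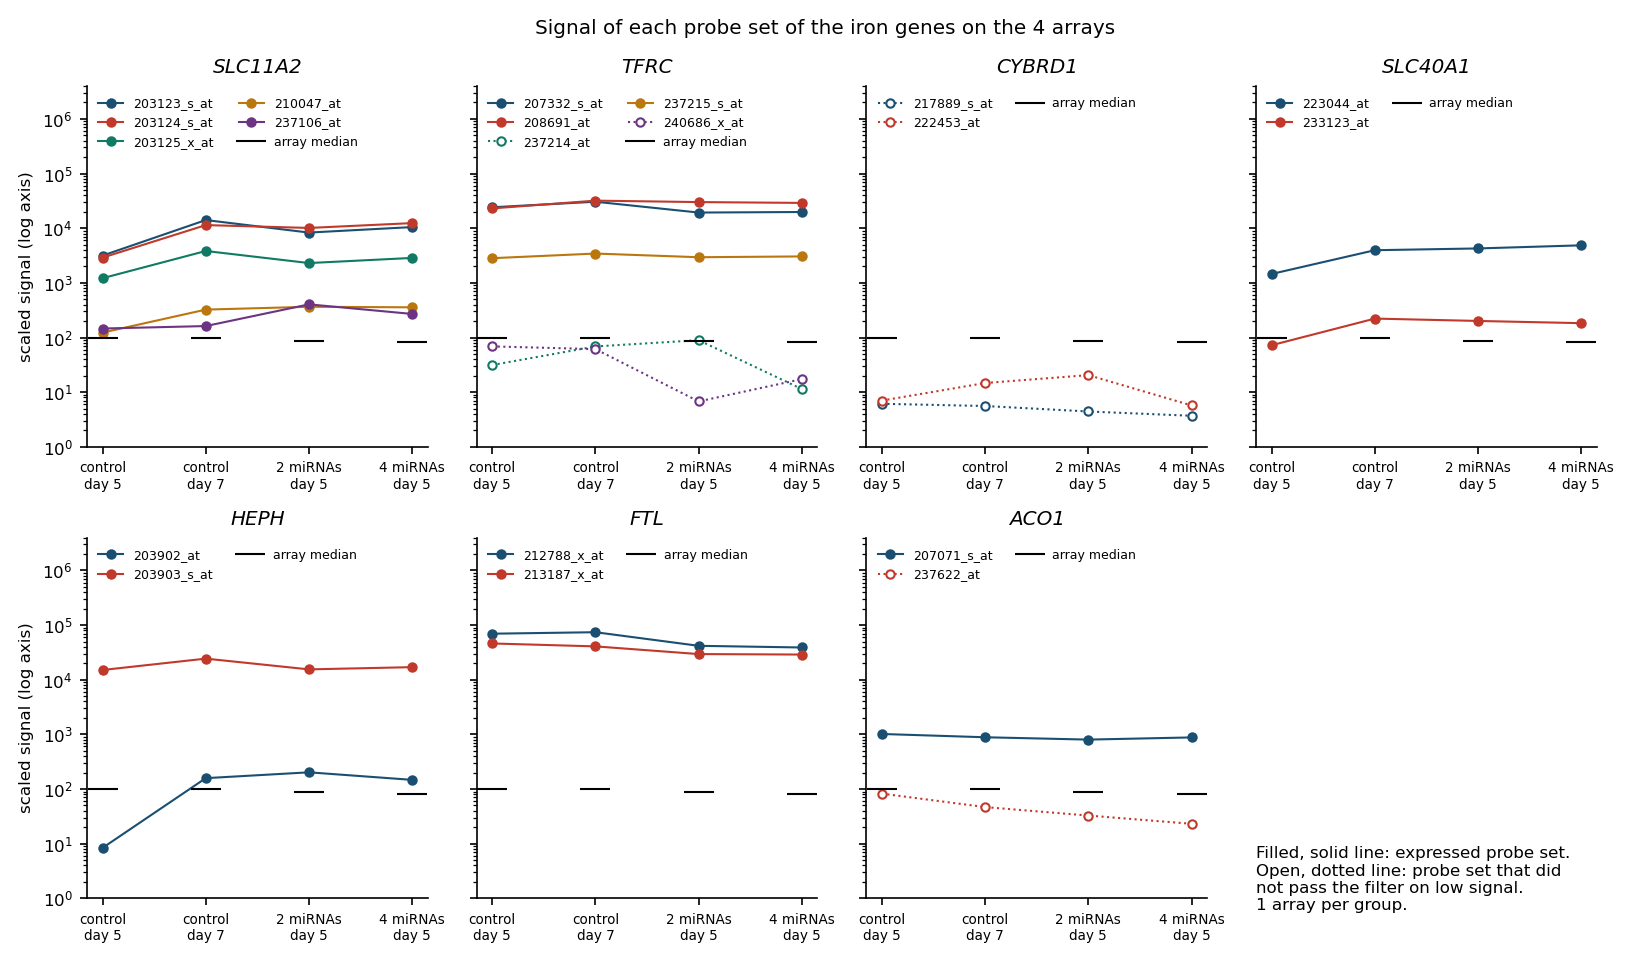
Scaled signal (log axis) of each of the 20 probe sets of 7 iron genes on the 4 arrays, 1 array per group, with lines joining the same probe set and black bars at each array's median. SLC11A2, SLC40A1 and HEPH were lowest on the day 5 control on every probe set, as was TFRC on 2 of its 3 expressed ones. CYBRD1 was under the median on every array, and both FTL probe sets were lower on the miRNA arrays.

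Of the 20 probe sets, 15 passed the filter on low signal, which asked for a mean log2 signal no lower than the median probe set or for the 75th percentile on 1 array. They covered 6 genes, each summarised by its brightest expressed probe set. CYBRD1, the ferric reductase, did not pass. Its probe sets read between 3.70 and 20.5 on all 4 arrays, where the array medians were 81.6 to 99.3, so no level or difference is given for it.

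Between the controls, SLC11A2 and SLC40A1 were higher on day 7 than on day 5, HEPH and TFRC were higher by less than 2-fold, and FTL and ACO1 lay within 0.2 of 0 on the log2 scale. In all, 2 of the 6 expressed iron genes were at least 2-fold higher and 0 lower. Over all 12264 expressed genes 3.35% were at least 2-fold higher and 2.41% lower. The median of the 6 genes was 0.58, beside −0.01 over all genes.

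SLC11A2, the apical iron carrier, read 2899 on the day 5 control, 11402 on the day 7 control, 10114 with 2 miRNAs and 12399 with 4 miRNAs on its representative probe set, 203124_s_at. On this probe set the day 5 control was low, and the other arrays lay close together. The difference between the controls was 1.96, a 3.90-fold higher level on day 7 and rank 51 from the highest of 12264 genes. Probe set 203123_s_at read 3155, 14098, 8320 and 10484 in the same order, with 2.15 between the controls. Probe set 203125_x_at read 1217, 3830, 2303 and 2859, with 1.63. The dimmer 210047_at read 123, 324, 365 and 357, with 1.20. The exception in the difference between the controls was 237106_at at 146, 162, 404 and 270, with 0.12. On 203123_s_at and 203125_x_at both miRNA arrays lay below the day 7 control, so the closeness of the other arrays was not shared by them. All 5 probe sets were lowest on the day 5 control, as were 26.4% of the 22609 named and expressed probe sets. SLC11A2 transcripts have alternative first exons and end with or without an iron-responsive element, and the annotation used does not say which forms each probe set reads.

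SLC40A1, the only known cellular iron exporter of vertebrates, read 1455, 3957, 4264 and 4860 on the day 5 control, day 7 control, 2-miRNA and 4-miRNA arrays with 223044_at. Day 7 minus day 5 was 1.42, or 2.68-fold, rank 155 from the highest. The dimmer probe set 233123_at read 72.3, 222, 201 and 183, and, being under the array median on the day 5 control, was at least 2.23-fold higher on day 7. Both probe sets had the day 5 control lowest. The dimmer one passed the filter on its mean, to which the brighter arrays contributed, and 0 arrays put it above their 75th percentile. Its low day 5 value is therefore no separate support. In such bulk RNA fewer cells expressing a gene and less of its RNA per cell cannot be told apart. The order of the other arrays differed between them, 4 miRNAs being highest on the one and the day 7 control on the other.

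HEPH, the copper ferroxidase that works with ferroportin, gave unlike values on its probe sets. The bright 203903_s_at read 15057, 24303, 15453 and 16971, with the day 7 control highest, and differed by 0.69 between the controls, 1.61-fold. The dim 203902_at read 8.38, 158, 202 and 147. On it the day 7 control was at least 1.59-fold higher than the day 5 control, which was under the array median. This probe set passed the filter on its mean, to which the brighter arrays contributed, and 0 of the 4 arrays put it above their 75th percentile.

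TFRC, the transferrin receptor, was bright on every array. With 208691_at it read 23043, 31939, 30062 and 29032, and with 207332_s_at 24167, 30518, 19339 and 19789. Probe set 237215_s_at read 2828, 3438, 2945 and 3045. All 3 were highest on the day 7 control, by 0.47, 0.34 and 0.28 against day 5, all at or above the probe set SD of 0.27 for the controls, the first by the most. The other TFRC probe sets did not pass the filter, reading 6.77 to 89.3.

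ACO1, cytosolic aconitase and iron regulatory protein in one, read 1016, 885, 802 and 879 on 207071_s_at, and day 7 minus day 5 was −0.19, within the probe set SD. Its other probe set, 237622_at, was under the median of every array. FTL, the light chain of ferritin, read 69464 and 73988 on the day 5 and day 7 controls with 212788_x_at (0.09) and 46034 and 40721 with 213187_x_at (−0.18). Both of its probe sets carry the suffix x_at, given where probes can also bind other transcripts, so signal from ferritin pseudogenes cannot be set apart from FTL.

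With miR-338-3p and miR-451, SLC11A2 was higher than on the day 5 control by 1.79 (3.46-fold) and SLC40A1 by 1.53 (2.89-fold), and FTL was lower by less than 2-fold. Again 2 of 6 genes were at least 2-fold higher and 0 lower, where 8.11% and 6.37% of all genes were. The median gene stood at −0.16, and relative to it SLC11A2 was at 1.95 and SLC40A1 at 1.69. Over the 5 SLC11A2 probe sets the difference ran from 0.90 to 1.79, and 4 of them were at least 2-fold higher. Of all named and expressed probe sets 9.24% were. The SLC40A1 probe set 233123_at was at least 2.03-fold higher, as was HEPH on 203902_at at least 2.03-fold, while bright 203903_s_at put HEPH at 0.04. TFRC differed in sign among probe sets, at 0.38 on 208691_at, −0.32 on 207332_s_at and 0.06 on 237215_s_at. ACO1 was at −0.33, or −0.17 relative to the median gene.

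With miR-210 and miR-33a in the mix as well, SLC11A2 was 2.08 above the day 5 control (4.24-fold) and SLC40A1 1.72 (3.29-fold). Relative to the median gene, at −0.15, these were 2.23 and 1.87. SLC11A2 stood at rank 114 from the highest and SLC40A1 at rank 253. Of all genes 8.03% were at least 2-fold higher and 6.70% lower, and of the 6 iron genes 2 and 0. SLC11A2 probe sets ranged from 0.76 to 2.08, 4 of 5 at least 2-fold higher, where 8.65% of all named and expressed probe sets were. SLC40A1 was at least 1.85-fold higher on 233123_at. HEPH was at 0.17 on its bright probe set and at least 1.48-fold higher on the dim one. TFRC was again split, at 0.33, −0.29 and 0.11 on the same probe sets, and ACO1 was at −0.20, or −0.05 relative to the median gene.

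Counts over all genes moved with the scaling. With 2 miRNAs 995 genes were at least 2-fold higher and 781 lower than the day 5 control, against 1341 and 425 with the array medians equalised and 1149 and 579 after running-median centring. With 4 miRNAs the counts were 985 and 822, against 1551 and 364 and 1145 and 574. SLC11A2 and SLC40A1 stayed at least 2-fold above the day 5 control under each scaling tried, but SLC11A2 was at 0.90 with 2 miRNAs when the median over its probe sets was taken.

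**Figure D2:**
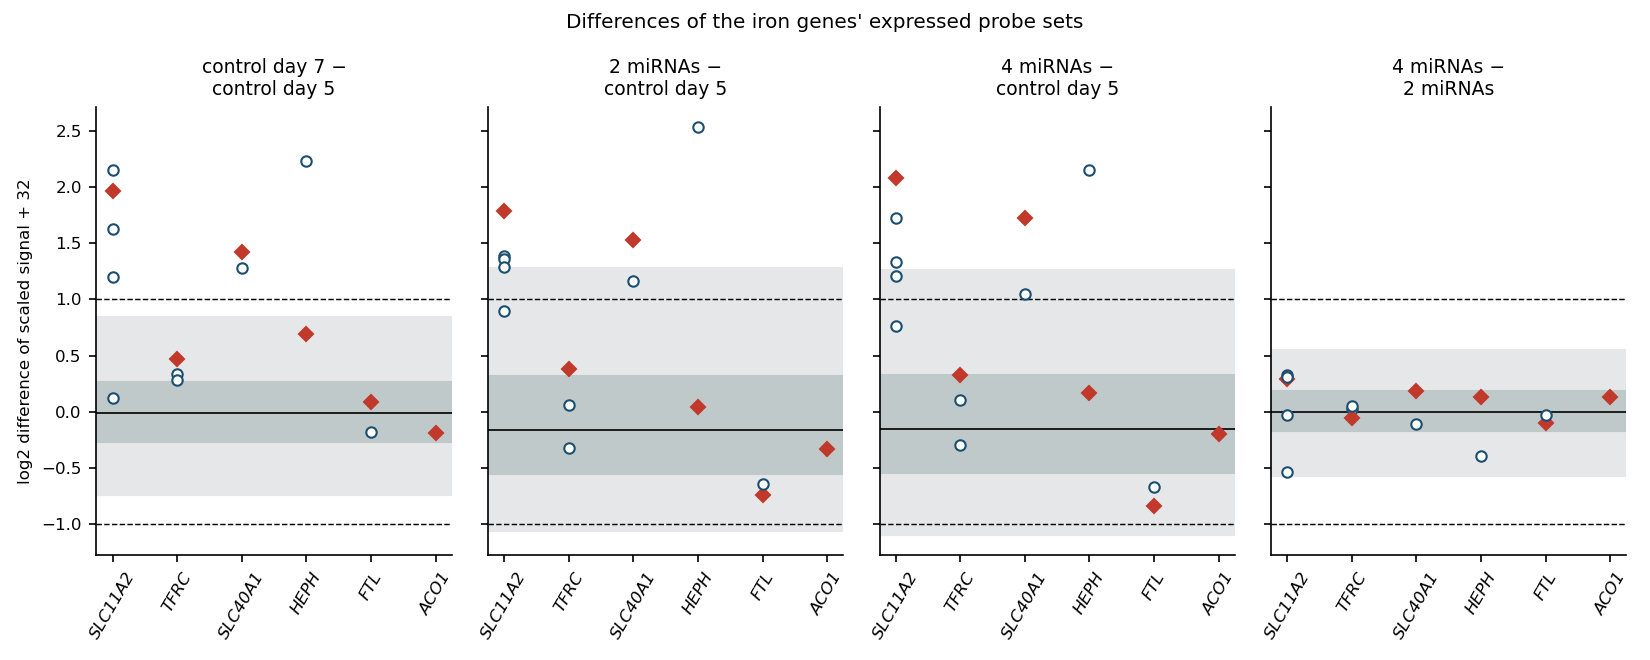
Log2 differences of scaled signal plus 32 for the 15 expressed probe sets of 6 iron genes in 4 comparisons, with diamonds for the probe set that stands for its gene and circles for the others. The grey bands hold the central 90% and 50% of all 12264 genes, the line is their median and the dashes are 2-fold; the diamonds of SLC11A2 and SLC40A1 lie above 1 against the day 5 control, while SLC11A2 circles lie as low as 0.12 on day 7, 0.90 with 2 miRNAs and 0.76 with 4, and no probe set is past 2-fold between the mixes.

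The comparisons above share the day 5 control, so its own deviation enters each. Against the day 7 control, 0 of 6 iron genes were at least 2-fold apart with either mix, where 6.19% and 4.03% of all genes were higher and lower with 2 miRNAs and 5.63% and 4.15% with 4. SLC11A2 was at −0.17 with 2 miRNAs and 0.12 with 4 on its representative, and SLC40A1 at 0.11 and 0.29, all within the probe set SD of 0.51. The other bright SLC11A2 probe sets lay lower, 203123_s_at at −0.76 and −0.43 and 203125_x_at at −0.73 and −0.42, so that with 2 miRNAs both were past that SD, while the dim 237106_at was at 1.17 and 0.64. The SLC11A2 probe sets thus did not agree in sign against this control. HEPH was at −0.65 and −0.52 on its bright probe set. TFRC's 207332_s_at was at −0.66 and −0.62, and its 208691_at at −0.09 and −0.14. FTL was furthest from 0 on its representative 212788_x_at, at −0.83 and −0.93, and at −0.47 and −0.50 on 213187_x_at. With quantile normalization 212788_x_at was at −0.10 and −0.14.

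FTL was the gene of the set with the largest negative difference on the miRNA arrays after scaling, but not with quantile normalization, where ACO1 was lower against the day 5 control (−0.32 and −0.20) and HEPH against the day 7 control (−0.47 and −0.33). Scaled signal was 69464 and 73988 on the controls against 41709 with 2 miRNAs and 38871 with 4 on 212788_x_at, and 46034 and 40721 against 29448 and 28857 on 213187_x_at. Both miRNA arrays were below both controls on both probe sets. The differences from the day 5 control were −0.74 and −0.84 on the first and −0.64 and −0.67 on the second. As deposited, the same probe set 212788_x_at read 10644, 10997, 12293 and 11662 in the order day 5 control, day 7 control, 2 miRNAs and 4 miRNAs, so that it was not lower on the miRNA arrays before scaling. The highest value of any probe set was 17832 to 18749 on all 4 arrays, while their scaling factors were 6.53, 6.73, 3.39 and 3.33. Among the 547 brightest probe sets, the top 1%, the median difference was −0.46 with 2 miRNAs and −0.47 with 4, with central 80% from −0.85 to 0.27 and from −0.89 to 0.27, and FTL lay inside both ranges. With quantile normalization FTL was at −0.14 and −0.17 against the day 5 control on 212788_x_at, and at −0.21 and −0.27 on 213187_x_at. That method gives all arrays the same set of values, so for so bright a gene a difference near 0 was largely set in advance. With running-median centring FTL was at −0.44 and −0.57, and with equal array medians at −0.55 and −0.55. TFRC's 2 brightest probe sets and HEPH's 203903_s_at were in the same top 1%.

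**Figure D3:**
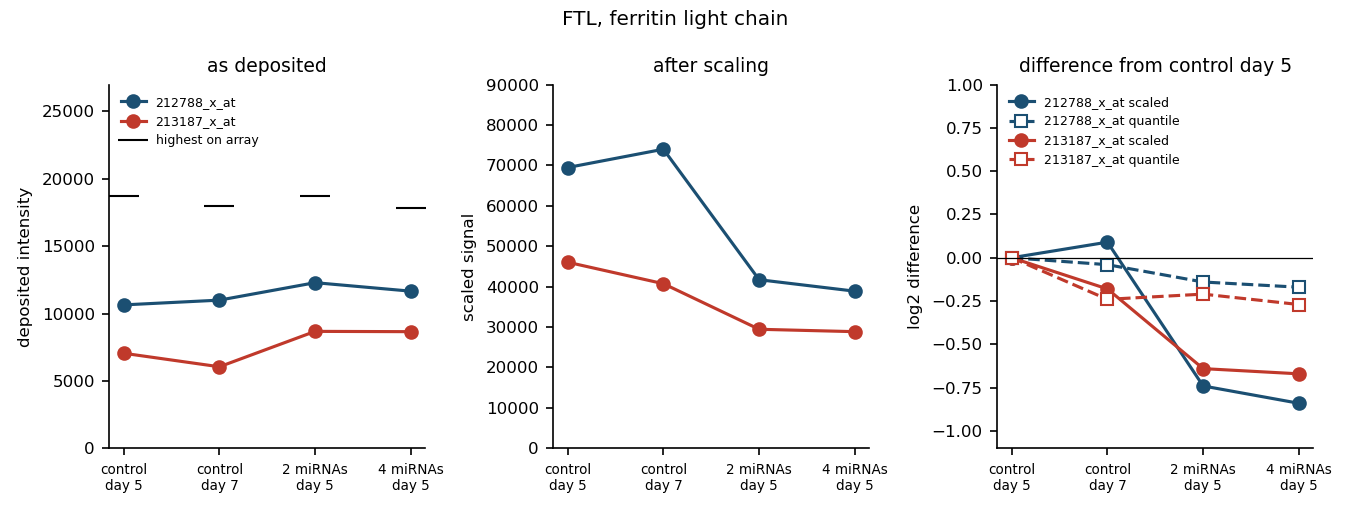
The 2 FTL probe sets on the 4 arrays as deposited (left, with the highest intensity of each array as black bars), after scaling to a common trimmed mean (middle), and as log2 difference from the day 5 control after scaling or quantile normalization (right). Deposited values were 10644 to 12293 for 212788_x_at, while its scaled differences on the miRNA arrays were −0.74 and −0.84 and its quantile-normalized ones −0.14 and −0.17. Quantile normalization gives all arrays the same set of values.

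Between the mixes the iron genes were close. None of the 6 was at least 2-fold apart, where 1.04% of all genes were higher and 1.33% lower with 4 miRNAs, and the median of the 6 was 0.13 beside 0.00 over all genes. SLC11A2 was at 0.29 on its representative and at 0.33 and 0.31 on 203123_s_at and 203125_x_at, but at −0.03 and −0.53 on the dim 210047_at and 237106_at. SLC40A1 was at 0.19, HEPH at 0.13, ACO1 at 0.13 and FTL at −0.10. TFRC, a reported target of miR-210, was at −0.05, 0.03 and 0.05 on its 3 expressed probe sets. ISCU, reported as one too, read 7018, 5622, 7160 and 5936 on the day 5 control, day 7 control, 2-miRNA and 4-miRNA arrays and was at −0.27 between the mixes, beside a probe set SD of 0.19. ISCU on the day 7 control was at −0.32 against the day 5 control.

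The genes whose profile over the 4 arrays came nearest to that of SLC11A2 were JAML, ABCA11P and FAM13A, and nearest to SLC40A1 were BMP2, NXPH4 and TMEM45A. Likeness was the root mean square difference on the log2 scale after centring each gene. FAM13A (0.108) read 1161, 4229, 4600 and 5325, and BMP2, a secreted bone morphogenetic protein (0.0362), read 718, 1988, 2254 and 2563. The other 4 genes were under the array median on the day 5 control, where the added 32 sets much of their difference, so no measure of likeness is given for them. The nearness rests on 4 arrays and describes these values only.

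A list of 15 HIF pathway genes is given beside these, since several iron genes are known HIF targets. It had 13 expressed members, of which 6 were at least 2-fold higher on day 7 than on day 5, 7 with 2 miRNAs and 8 with 4, and 0 were lower, with medians of 0.96, 1.09 and 1.27. Over all genes 3.35%, 8.11% and 8.03% were higher, with medians of −0.01, −0.16 and −0.15. The list was uneven. The prolyl hydroxylase gene EGLN3 was at 2.21, 2.24 and 2.74, and at 1.06, 1.15 and 1.30 on its other expressed probe set. BNIP3 was at 1.34, 1.37 and 1.51, and its lowest probe set was past 2-fold in each comparison too. Other counted genes differed among probe sets. On their lowest ones, VEGFA was at −0.15 and −0.14 with 2 and 4 miRNAs, PDK1 at 0.66 and 0.03 and EGLN1 at 0.33 and 0.53. SLC2A1, the glucose carrier GLUT1, was at −0.27, −0.24 and 0.01, and VHL, which marks HIF subunits for destruction, at −0.25, −0.25 and −0.29. These HIF genes were chosen after their values were seen. EPAS1, which encodes the HIF-2α subunit, was at 0.45, −0.24 and 0.20, and HIF1A at −0.48, 0.06 and −0.17. Against the day 7 control the list's medians were 0.03 and 0.17. Whether HIF had a part in the levels of SLC11A2 and SLC40A1 was not tested.

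**Figure D4:**
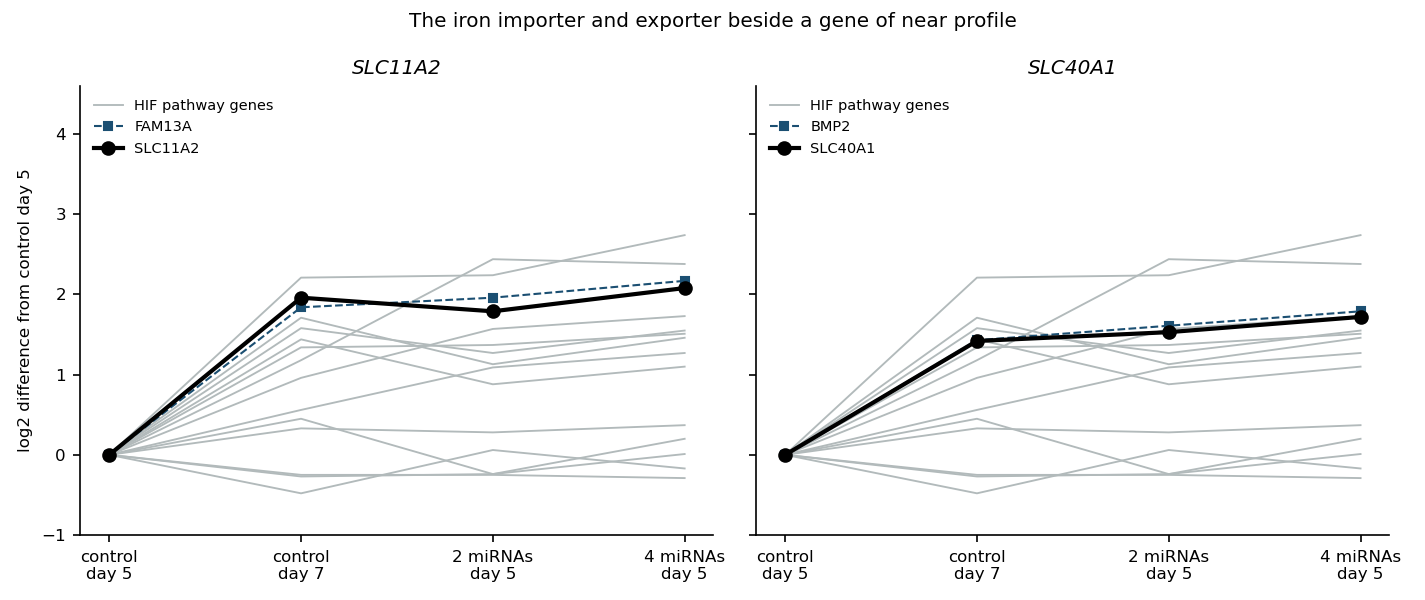
Log2 difference from the day 5 control on the 4 arrays for SLC11A2 (left) and SLC40A1 (right) in black, a gene of near profile measured on all arrays (FAM13A, BMP2) as a dashed line and 13 expressed HIF pathway genes in grey. SLC11A2 reached 1.96, 1.79 and 2.08 and SLC40A1 1.42, 1.53 and 1.72 on the day 7 control, 2-miRNA and 4-miRNA arrays, within the spread of the grey lines.

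The other genes of the iron pathway were counted in the same way. Of 99 other iron genes in 6 lists, 73 were expressed. On day 7, 2 were at least 2-fold higher and 2 lower than on day 5, that is 2.74% each beside 3.35% and 2.41% of all genes. With 2 miRNAs 5 were higher and 3 lower (6.85% and 4.11%, beside 8.11% and 6.37%), and with 4 miRNAs 5 and 2 (6.85% and 2.74%, beside 8.03% and 6.70%). Against the day 5 control these shares were thus near or under those of all genes. The medians of the 73 were −0.09, −0.20 and −0.15 beside −0.01, −0.16 and −0.15. Against the day 7 control 8 of the 73 were at least 2-fold higher and 1 lower with each mix. The share higher was there above that of all genes, 6.19% with 2 miRNAs and 5.63% with 4. The share lower was under theirs, 4.03% and 4.15%. Some of the genes counted as higher, TFR2 and BOLA2 included, were under the array median on the day 7 control.

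Of 18 other uptake genes 10 were expressed. SLC39A14, another importer of non-transferrin iron, read 3993, 3747, 3640 and 3216, and STEAP3, the ferrireductase of endosomes, 552, 542, 354 and 401. Neither was past 2-fold. TFR2 was at least 1.38-fold lower on day 7, where it was under the array median. In the list of iron chaperones, ferritin breakdown and control of the iron regulatory proteins, 11 of 13 were expressed. FBXL5, the ubiquitin ligase subunit that targets IREB2 for destruction when iron is plentiful, read 568, 596, 2191 and 1749 and was 1.89 and 1.57 above the day 5 control with 2 and 4 miRNAs, but its other expressed probe set was at −0.08 and −0.37. NCOA4, the receptor that takes ferritin to lysosomes, read 14017, 16160, 15223 and 14032. PCBP4 was at −1.48 with 2 miRNAs, and BOLA2 was at least 1.85-fold lower on day 7, under the array median there.

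In the list of the hepcidin axis and other export genes, 9 of 15 were expressed and 2 were at least 2-fold higher with each mix, APP (1.86 and 1.81, and 0.19 and 0.03 on its lowest probe set) and SMAD4, the common mediator of bone morphogenetic protein signals (1.33 and 1.56, and 0.76 and 0.99 on its other). Of 17 heme genes 15 were expressed. CPOX, a mitochondrial enzyme of heme synthesis, was at 1.83 and 1.58 with the mixes on its single expressed probe set, UROS read 973, 740, 661 and 471 and counted as 2-fold lower with 4 miRNAs, but was at −0.54 on its highest probe set, and FLVCR2 was at 1.03 on day 7. HMOX1, which breaks heme down and frees its iron, read 427, 549, 427 and 528. Of 28 genes of mitochondrial iron and iron-sulphur clusters 24 were expressed. FDX2, a ferredoxin of cluster assembly, was at −1.55 with 2 miRNAs, CIAPIN1 at −1.04 and −1.21 with 2 and 4 (−0.45 and −0.68 on its other probe set), and ABCB10 at 1.25 with 4. ABCB8 was at least 1.54-fold higher on day 7, from under the median on day 5. With 2 miRNAs it counted as higher too (31.1 on the day 5 control and 95.8), but so near the array median that no fold is given. Of 8 other messenger RNAs with an iron-responsive element 4 were expressed and 0 were past 2-fold in these comparisons.

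**Figure D5:**
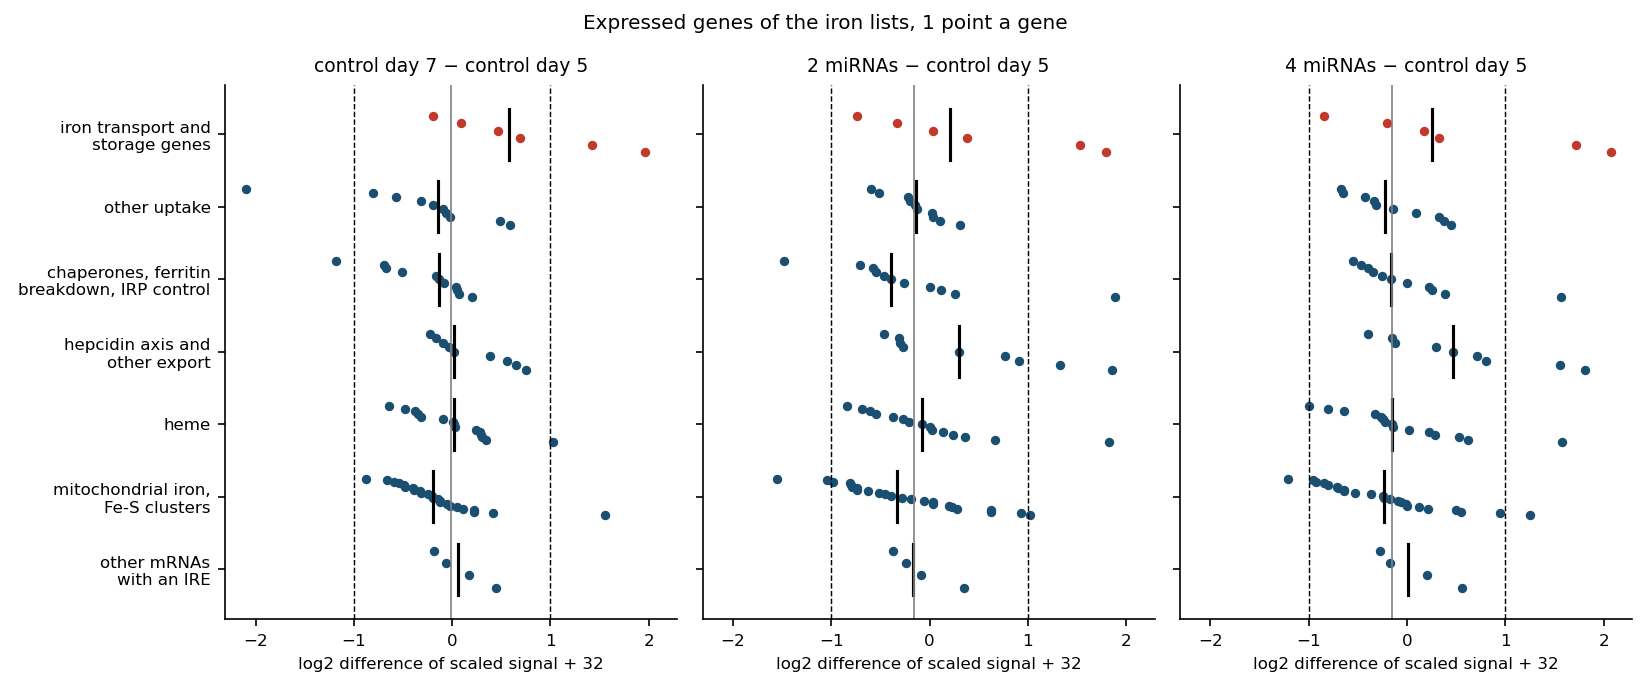
Log2 difference of scaled signal plus 32 for each expressed gene of 7 lists in the 3 comparisons with the day 5 control, the iron transport and storage genes in red, with black bars at list medians, a grey line at the median of all genes and dashes at 2-fold. The red genes past 2-fold are SLC11A2 and SLC40A1, and the list medians of the others lie between −0.39 and 0.47.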

How the data were processed

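Messenger RNA of T84 cells was measured on 4 arrays, 1 in each of 4 groups. The authors deposited an intensity for each of 54675 probe sets, which the submitters' processing notes credit to MAS5, with no version or target level named there. Arrays were scaled to a 2% trimmed mean of 500, 32 was added and log2 taken. Of the probe sets, 41097 had 1 gene symbol in the platform annotation, 1801 several and 11777 none, and 41043 were updated by gene ID through RefSeq (GRCh38.p14). The filter and the choice of the brightest probe set per gene left 12264 genes, counted at an absolute log2 difference of 1. Where only 1 of 2 arrays had a gene at its median level or more, the fold is written "at least", taking the dimmer array's median for the low value. Genes outside the members were named by rule where they were among up to 3 past 2-fold per list and comparison with the day 5 control. Genes past 2-fold only in other comparisons were not named. ISCU was named too, as were the 3 nearest profiles of members whose values span 1 or more. Picked outside this rule were SLC39A14, STEAP3, NCOA4, HMOX1, SLC46A1, HAMP, TF and the named cell type markers and HIF genes. Members, lists and alternatives were chosen with earlier results of these data known. The calculation was checked on simulated data. Python 3.11.15, numpy 2.4.6 and pandas 2.3.3 were used. Promoter and miRNA sequences came from RefSeq tables on GRCh38.p14. The number of arrays limits the precision.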

Additional observations from a re-analysis of the deposited data

How the results depend on the processing

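Each result was recomputed under 9 alternatives, among them quantile normalization, running-median centring, equal array medians, pseudocounts of 16 and 64, no filter, a 70th percentile filter, the median over probe sets, and no probe sets with the suffix x_at or s_at. The count of iron genes at least 2-fold apart was 2 or 3 in each comparison with the day 5 control and 0 in the other 3. All those counted were higher. Over all genes the share at least 2-fold higher moved with the setting, from 1.68% to 7.51% on day 7. It ran from 6.87% to 10.9% with 2 miRNAs and from 6.65% to 12.6% with 4. The count of iron genes was not always made of the same ones. With 2 miRNAs and the median over probe sets, HEPH and SLC40A1 were counted and SLC11A2 (0.90) was not. Without x_at and s_at probe sets HEPH joined SLC11A2 and SLC40A1. Both HEPH counts rest on its dim probe set, under the array median on the day 5 control and at least 1.59-, 2.03- and 1.48-fold higher on the other arrays, so they give no firm call. In the last setting FTL and ACO1 had no expressed probe set left. Over its alternatives SLC11A2 ran from 1.20 to 1.97 on day 7, 0.90 to 1.98 with 2 miRNAs and 1.21 to 2.37 with 4, and SLC40A1 from 1.35 to 1.43, 1.35 to 1.71 and 1.38 to 2.00. Against the day 7 control SLC11A2 ran from −0.73 to 0.16 with 2 miRNAs and from −0.42 to 0.40 with 4. Against the day 5 control FTL ran from −0.74 to −0.14 and from −0.84 to −0.17 with the mixes, and TFRC changed sign with 2 miRNAs (−0.25 to 0.70) and with 4 (−0.22 to 0.62). Of 312 recomputed gene differences, 289 moved by less than the probe set SD of their comparison, 23 by more and 0 of those past 2-fold changed sign. Much of this count was set in advance. The settings without a filter and with the 70th percentile filter kept the same probe sets, and the pseudocounts hardly moved genes this bright. All 23 came from quantile normalization, the median over probe sets or the removal of x_at and s_at probe sets. No paired analysis was possible because each group has 1 array.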

Other observations

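KRT18, the epithelial keratin read here as a marker, stood beside FTL among the brightest genes and is given for comparison; it was chosen after its values were seen. It read 65666 and 69867 on the day 5 and day 7 controls and 39398 and 39650 with 2 and 4 miRNAs, after scaling. EPCAM, the epithelial adhesion molecule, read 21199, 28272, 37349 and 35406 in the same order. Bright epithelial genes thus did not all lie lower on the miRNA arrays, but on the controls EPCAM was dimmer than KRT18 and FTL.

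HAMP, which encodes hepcidin, the hormone that removes ferroportin from the membrane, was not expressed by the filter on low signal, at 29.4, 2.51, 95.9 and 96.9 on the day 5 control, day 7 control, 2-miRNA and 4-miRNA arrays, and TF, the transferrin gene, was not expressed either, at 81.7, 11.6, 82.3 and 5.85. SLC46A1, the folate and heme carrier, read 166, 267, 182 and 226, with a difference of 0.59 on day 7, the highest of its 3 expressed probe sets. The lowest in each comparison with the day 5 control was −0.11 on day 7, −0.75 with 2 miRNAs and −1.37 with 4, so they did not agree in sign.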
